A study of Mus musculus with 6 samples.

Results

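The transcripts described here are those of 10 genes for lipid droplet proteins and lipases, Cidea, Cideb, Cidec, Plin2, Plin4, Plin5, G0s2, Pnpla2, Pnpla3 and Dgat2, among 20018 named genes on the array. All 10 were found by the RefSeq accession of their probes, with 13 probes in all, and every probe was kept. RNA came from male C57BL/6J mice 3 days after surgery. PVBL stands for ligation of the portal vein's left branch, after which the right lobe keeps its portal flow and grows; the right lobe was sampled. Sham-operated mice served as controls. There were 3 samples of each kind, and every sample was hybridised to a single-colour Agilent array. No label states that the samples are separate animals, so the p-values cover the variation among these samples, part of which may be technical.

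A lipid droplet is a store of triglyceride and sterol esters inside a single layer of phospholipid, coated by proteins that control access to the fat. Perilipins coat the surface, and proteins of the CIDE family sit where droplets touch and pass lipid from the smaller to the larger one. Dgat2 makes triglyceride from diglyceride, Pnpla2 (adipose triglyceride lipase, ATGL) starts its breakdown, and G0s2 binds and inhibits Pnpla2. Regenerating rodent liver is known to store fat for a short time in the first days after tissue loss, and then to use it.

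The promoters shown are those of the perilipins Plin2 and Plin5, of Cidec and of the lipase Pnpla2. They were picked by direction in the comparison below. Plin5 and Cidec were called higher and Pnpla2 lower, while Plin2 read higher but missed the threshold. RefSeq's table (GRCm38.p6) gave the start sites used, for 8 of the 10 genes, and the 250 bases before a start are printed 5′ to 3′ on the gene's strand. Capitals mark matches on either strand to a TATA box (TATAAA), the letters CCAAT, a GC box (GGGCGG), an E-box (CACGTG) or a nuclear receptor half-site (AGGTCA), the last being a site for factors such as the PPARs.
Plin2, chr4:86670060-86670309, minus strand: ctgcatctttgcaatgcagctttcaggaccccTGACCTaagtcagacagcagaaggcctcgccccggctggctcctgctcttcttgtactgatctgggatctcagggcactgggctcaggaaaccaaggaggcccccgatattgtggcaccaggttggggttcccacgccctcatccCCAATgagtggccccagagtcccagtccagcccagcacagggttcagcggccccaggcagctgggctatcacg
Plin5, chr17:56117549-56117798, minus strand: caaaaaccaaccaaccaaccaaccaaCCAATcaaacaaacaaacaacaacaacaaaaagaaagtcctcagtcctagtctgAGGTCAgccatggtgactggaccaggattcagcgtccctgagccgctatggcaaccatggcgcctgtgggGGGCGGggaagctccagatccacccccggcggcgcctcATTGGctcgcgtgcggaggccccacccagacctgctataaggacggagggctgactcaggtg
Cidec, chr6:113435761-113436010, minus strand: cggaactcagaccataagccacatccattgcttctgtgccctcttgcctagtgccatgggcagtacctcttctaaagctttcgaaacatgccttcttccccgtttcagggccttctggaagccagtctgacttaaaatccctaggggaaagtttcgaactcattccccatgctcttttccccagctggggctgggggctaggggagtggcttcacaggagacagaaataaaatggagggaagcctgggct
Pnpla2, chr7:141454938-141455187, plus strand: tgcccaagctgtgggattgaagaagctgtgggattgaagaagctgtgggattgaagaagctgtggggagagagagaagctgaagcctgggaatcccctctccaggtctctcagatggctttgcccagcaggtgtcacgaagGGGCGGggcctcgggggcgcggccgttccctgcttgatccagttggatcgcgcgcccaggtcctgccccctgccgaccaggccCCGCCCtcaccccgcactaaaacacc

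The half-site AGGTCA lay 218 bases before the Plin2 start, on the opposite strand, and 170 bases before this Plin5 start. Plin5 has another start site in the table, whose window held GGGCGG at 239 and 53 bases before the start and no half-site. The half-site AGGTCA was in 14% of all 32851 promoter windows of the table cut to the same length. Cidec too has another start site in the table, and neither of its windows held any of the 5 motifs. The window of Pnpla2 held GGGCGG on each strand, a motif found in 32.7% of the windows. The direct repeat 1, a pair of these half-sites with 1 base between them on which PPAR and RXR bind together, was in no window of the 8 genes and in 0.0335% of all windows. A match of letters is a description of the sequence and not a measured binding site.

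Signals were taken as log2 of the scanner's processed signal minus the array's 75th percentile, so a level of 0 is the 75th percentile of that array. Between 48.0% and 53.6% of an array's probes read well above background, the 75th percentile was between 203.5 and 407 signal units, and no spot was saturated. The number of arrays limits the precision. The tissue label was checked on 8 hepatocyte genes, which were well above background on all 6 arrays. Each standing by its brightest probe, their median log2 difference was -0.39. Of these, 1 was called lower, Cyp2e1 (-1.07 ± 0.28, adjusted p = 0.0268), and 7 did not pass. For albumin (Alb) the log2 difference of -0.28 ± 0.16 (SE) missed the threshold (adjusted p = 0.203). That of the hepatocyte factor Hnf4a was -0.17 ± 0.14 (adjusted p = 0.398), and with spike-in or quantile scaling the sign of both turned. All arrays were on 1 slide, sham in row 1 and PVBL in row 2, and row therefore cannot be told apart from surgery.

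The question was how these transcripts differed between the right lobe after PVBL and sham liver at 3 days. Transcripts of the droplet-enlarging proteins Cidea and Cidec and of the coat proteins Plin4 and Plin5 rose. Those of the lipase Pnpla2, its inhibitor G0s2 and the triglyceride-making enzyme Dgat2 fell. Cideb, Plin2 and Pnpla3 did not pass the threshold. Tests covered probes well above background throughout PVBL, sham or both, and a probe is called where limma's p, adjusted over all 27914 probes tested, was under 0.05. Of the 13 probes 12 were tested, and 5 (41.7%) were called higher, 3 (25%) lower and 4 neither. Over all probes tested 11.3% were called higher, 19.3% lower and 30.5% either way, so the share of falls was near that of the arrays as a whole. With other scalings the members' split moved from 5 higher and 3 lower to 6 and 1 (array median), 6 and 2 (quantile) and 6 and 0 (spike-in probes). Over all 27914 probes tested, 3990 were then called higher and 3289 lower (array median), 3590 and 4671 (quantile) and 2620 and 462 (spike-in probes). In the spike-in setting limma gave every tested probe of the members the same SE, 0.40. Calls in that setting therefore do not reflect each probe's own spread. The members' split had 3 rises without PVBL 1 or sham 1, and 1 fall without PVBL 2, sham 1 or sham 2. With no filter on dim probes, where more probes are tested, the calls of the dimmer Cidec probe, Plin4, G0s2 and Pnpla2 were lost (adjusted p = 0.0743, 0.0891, 0.109 and 0.107). Values of the groups did not overlap for 9 of the 12 probes, against 50.7% of all probes tested. Cidea, and 1 Pnpla3 probe, were tested only because they were above background in PVBL. Among the 10 probes above background on all 6 arrays, 4 (40%) were called higher and 3 (30%) lower. With only such probes tested, 5 member probes were called higher and 3 lower. Over all 24632 probes of that setting, 2818 were called higher and 4746 lower.

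**Figure D1:**
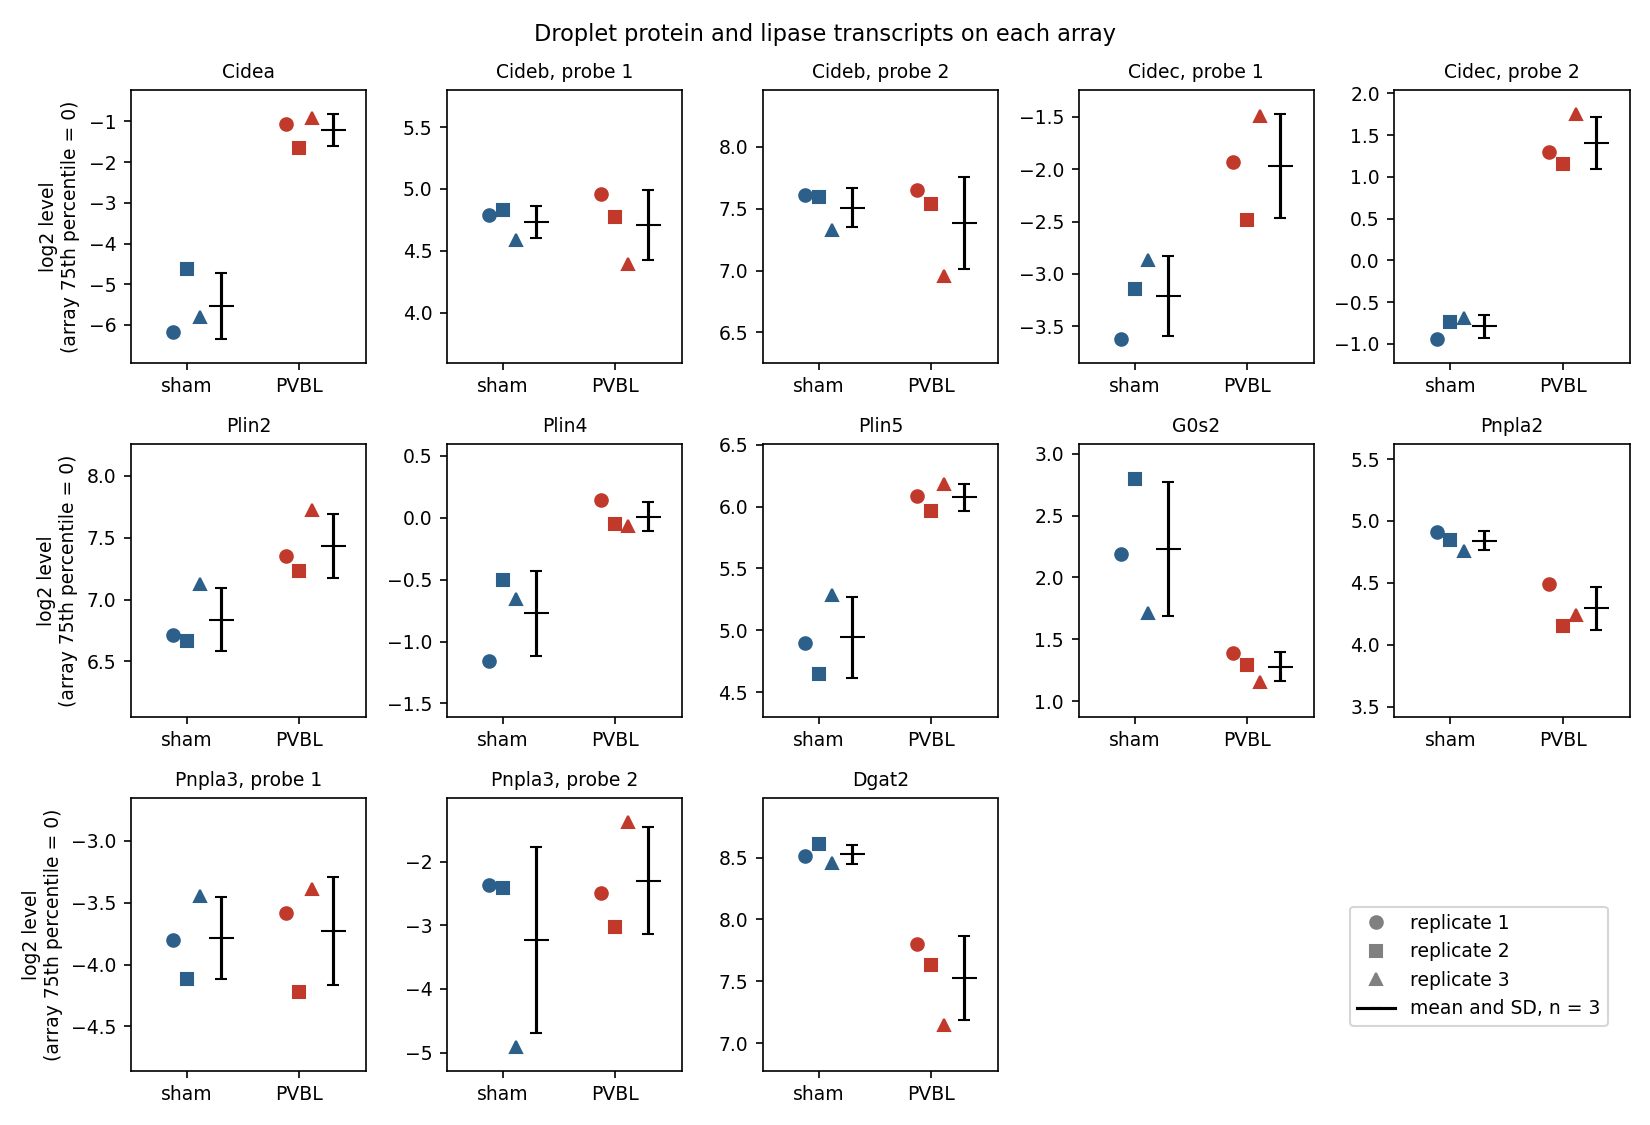
Log2 level (array 75th percentile = 0) of each of the 13 probes on the 3 sham (blue) and 3 PVBL (red) arrays, with symbols for the replicate number and the mean with its SD beside the points; the height of the axis differs between panels. All PVBL points lie above all sham points for Cidea, Cidec, Plin2, Plin4 and Plin5 and below them for G0s2, Pnpla2 and Dgat2, and the sham points of Cidea were not well above background.

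Members of the CIDE family differed among themselves. Cidea, known from brown fat and from fatty liver, had log2 levels of -1.06, -1.66 and -0.92 on the PVBL arrays. On the sham arrays it stood at -6.18, -4.63 and -5.80, where no array read well above background. The groups lay far apart, at signals of 105 to 195 units against 3.66 to 12.2 units. Cidea in PVBL was at least 8.06-fold above a floor set for the sham arrays. That floor is the lowest signal counted as well above background on each sham array, or the probe's own where higher. Limma's adjusted p of 0.000648 belongs to the fitted log2 difference of 4.32, which uses the sham signals as read. The 8.06-fold bound itself was not tested. With normexp background correction, which adds 50 units to every signal and so makes folds of dim probes smaller by construction, the difference was 0.97 on the log2 scale and still called.

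Cidec, also called Fsp27, is the family member of white fat and is known to be induced in fatty liver. Its brighter probe (A_55_P1969131) read 1.29, 1.16 and 1.75 in PVBL and -0.94, -0.74 and -0.69 in sham. Every PVBL array was above every sham array, and the transcript was 4.57-fold higher (log2 difference 2.19 ± 0.18, SE, n = 3 per group, adjusted p = 0.000409). Its dimmer probe (A_55_P1969128) read -1.93, -2.49 and -1.50 in PVBL against -3.62, -3.14 and -2.86 in sham, a 2.36-fold rise (1.24 ± 0.29, adjusted p = 0.0206). The probes moved the same way by different amounts. The call of the dimmer one was lost without PVBL 1, sham 1 or sham 2 (log2 differences of 1.22, 1.03 and 1.27, adjusted p from 0.0558 to 0.0681), and with normexp it was 0.49 (adjusted p = 0.0554).

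Cideb, the family member of normal hepatocytes, known for its part in loading triglyceride onto very low density lipoprotein, had overlapping groups. Its brighter probe (A_66_P108685) read 7.65, 7.54 and 6.96 in PVBL and 7.61, 7.59 and 7.33 in sham. The log2 difference was -0.13 (95% interval -0.61 to 0.36, adjusted p = 0.656). The other probe (A_55_P2008056) gave -0.03 (-0.44 to 0.39, adjusted p = 0.917). These intervals leave room for a rise of up to 1.31-fold in either probe's reading and for a fall of up to 1.53-fold. Both signs turned with median, quantile and spike-in scaling, and no setting called either probe.

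Among the perilipins the largest rise was that of Plin5, a coat protein of tissues that burn fat, which binds Pnpla2 and its activator and holds droplets near mitochondria. Plin5 read 6.08, 5.96 and 6.18 on the PVBL arrays and 4.90, 4.64 and 5.29 on the sham arrays. The lowest PVBL array was above the highest sham array, and Plin5 was 2.19-fold higher (log2 difference 1.13 ± 0.19, adjusted p = 0.00587). This call was kept with any 1 array left out (differences from 0.98 to 1.31) and under each of the other settings tried.

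Plin4, a perilipin of fat cells and muscle that coats small droplets, stood at 0.15, -0.05 and -0.07 in PVBL and at -1.16, -0.50 and -0.66 in sham. Sham 1 was the lowest of the sham arrays, and the groups did not overlap. Plin4 was 1.72-fold higher (0.78 ± 0.19, adjusted p = 0.0236). Without PVBL 1, sham 1 or sham 3 the call was lost, at differences of 0.71, 0.59 and 0.84 (adjusted p from 0.0546 to 0.073).

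Plin2, the main droplet coat protein of hepatocytes and a common marker of stored fat, read 7.35, 7.23 and 7.73 in PVBL and 6.71, 6.67 and 7.13 in sham. The groups did not overlap, but PVBL 2 and sham 3 lay close together. The difference of 0.60 ± 0.19 on the log2 scale, a fold of 1.52, missed the threshold (adjusted p = 0.0526). It was called under 8 of 11 other settings that kept all arrays, for example with 1 probe per named gene (adjusted p = 0.0476) and with normexp (0.68, adjusted p = 0.0164), and not with spike-in scaling (1.03, adjusted p = 0.077). Without sham 3 it was 0.75 (adjusted p = 0.0479).

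The genes that break triglyceride down or restrain that step come next. Pnpla2 had levels of 4.49, 4.15 and 4.24 in PVBL and 4.91, 4.84 and 4.76 in sham. All PVBL arrays were below all sham arrays, and Pnpla2 was 1.46-fold lower (log2 difference -0.55 ± 0.14, adjusted p = 0.0259). The median over all probes tested was -0.19, which lies on the same side. The call of Pnpla2 was lost without PVBL 2 (-0.48), sham 1 (-0.51), sham 2 (-0.54) or sham 3 (-0.59), at adjusted p from 0.0568 to 0.0961. It was lost too with median (-0.41), quantile (-0.45) and spike-in scaling (-0.12), the last of which moved the median over all probes to 0.24.

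G0s2, the inhibitor of Pnpla2, read 1.39, 1.29 and 1.16 in PVBL and 2.19, 2.79 and 1.71 in sham. The sham arrays were spread widely, yet each was above every PVBL array. G0s2 was 1.93-fold lower (-0.95 ± 0.26, adjusted p = 0.0342). Only the fit without sham 3 kept the call (-1.21), and without any other single array it was lost, with adjusted p from 0.0668 to 0.0877 and differences from -1.01 to -0.67, the smallest without sham 2. It was also lost with median scaling (-0.82, adjusted p = 0.0754) and spike-in scaling (-0.52, adjusted p = 0.518). Abhd5, the activator of Pnpla2 that Plin5 binds, differed by 0.11 ± 0.16 (adjusted p = 0.612), and was named here after its value was seen. Its other probes differed in sign, at 0.16 (adjusted p = 0.418) and -0.23 (adjusted p = 0.249), and were not called.

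Pnpla3, a lipase-like droplet protein whose gene follows feeding and insulin, was dim. Its probe A_55_P2025514 read -2.49, -3.03 and -1.38 in PVBL and -2.36, -2.41 and -4.91 in sham. Sham 3, at 6.76 signal units, was not above background, and it set most of the difference of 0.93 ± 0.73 (95% interval -0.80 to 2.65, adjusted p = 0.356), which was 0.09 without sham 3. With spike-in scaling this probe was called higher (1.35, adjusted p = 0.00914), and it is the sixth rise of that scaling. Limma's SE was then 0.40, the value shared by all tested member probes. That call therefore does not reflect this probe's own spread and is not taken as a rise. The probe A_51_P389265 was above background on 2 arrays of each group and was not tested. Its levels lay between -4.22 and -3.39 in PVBL and between -4.11 and -3.45 in sham.

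Dgat2, of the last step of triglyceride synthesis, had levels of 7.80, 7.63 and 7.15 in PVBL and of 8.51, 8.61 and 8.46 in sham. The sham arrays lay close together and all PVBL arrays were below them, PVBL 3 the farthest. Dgat2 was 2.00-fold lower (log2 difference -0.999 ± 0.19, adjusted p = 0.00948). The call was kept without any 1 array, at differences from -1.14 to -0.81. It was lost only with spike-in scaling (-0.57 ± 0.40, adjusted p = 0.459).

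**Figure D2:**
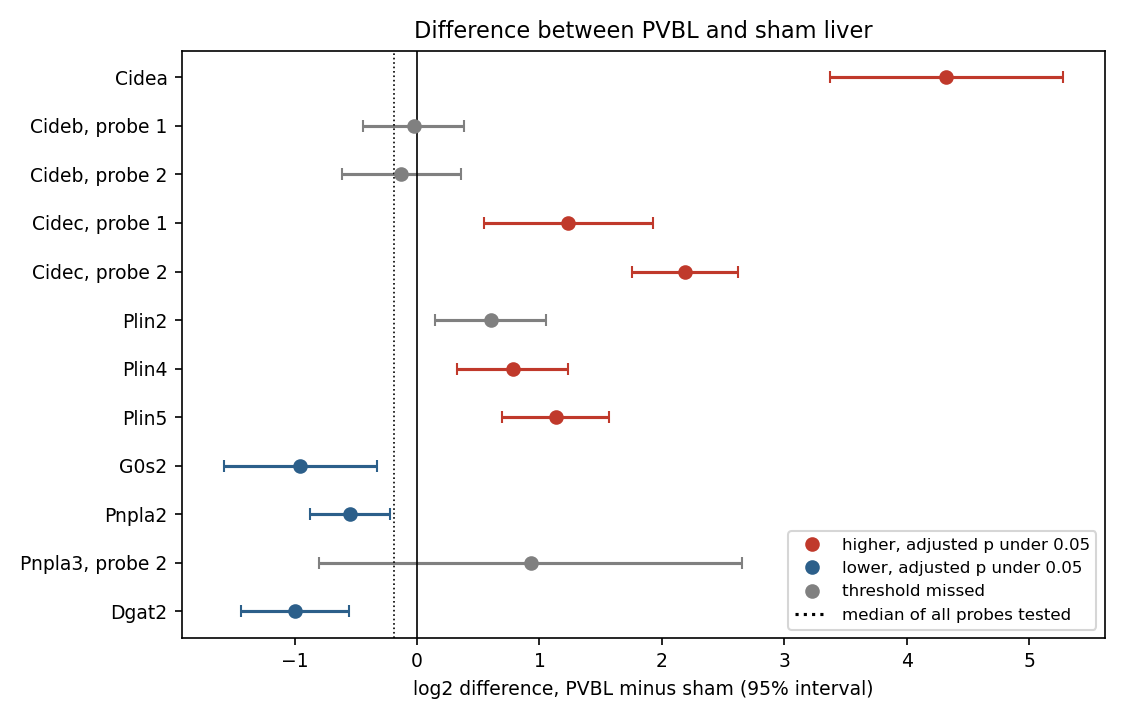
Log2 difference between PVBL and sham for the 12 tested probes, with limma's 95% interval; red and blue points were called higher and lower, grey points were not called, and the dotted line is the median over all probes tested (-0.19). Cidea (4.32, a fitted value, since its sham arrays were not above background) and the brighter Cidec probe (2.19) lie farthest to the right, and Dgat2 (-0.999) and G0s2 (-0.95) farthest to the left.

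Differences between a pair of members on the same array do not depend on how arrays were scaled by a constant, and 7 pairs were compared with an exact two-sided permutation test over the 6 arrays, which cannot go below p = 0.10. The change in log ratio was 4.45 for Cidea over Cideb and 2.32 for Cidec over Cideb, with no overlap between groups (exact p = 0.10 each, the smallest possible, adjusted p = 0.14 over the pairs). The sham values of Cidea were not above background, so its size is uncertain. The ratio of Plin2 to Plin5 was changed by -0.53 in PVBL (log2, SD 0.16 in PVBL and 0.11 in sham, exact p = 0.10). The ratio of Dgat2 to Pnpla2 was changed by -0.45 (exact p = 0.10). The log2 ratio of Pnpla3 to Pnpla2 was -6.97, -7.18 and -5.62 in PVBL and -7.28, -7.25 and -9.67 in sham. Pnpla3 was not above background on sham 3, the array with the lowest ratio, so no size is given for this pair. No pair passed 0.05, which this design does not allow. The inhibitor and its lipase, G0s2 and Pnpla2, showed a change of -0.41 in their ratio with overlapping groups (exact p = 0.20, adjusted p = 0.233). Plin4 over Plin2 changed by 0.18, also with overlap (exact p = 0.80). A changed ratio shows that the members changed unequally, and no more.

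**Figure D3:**
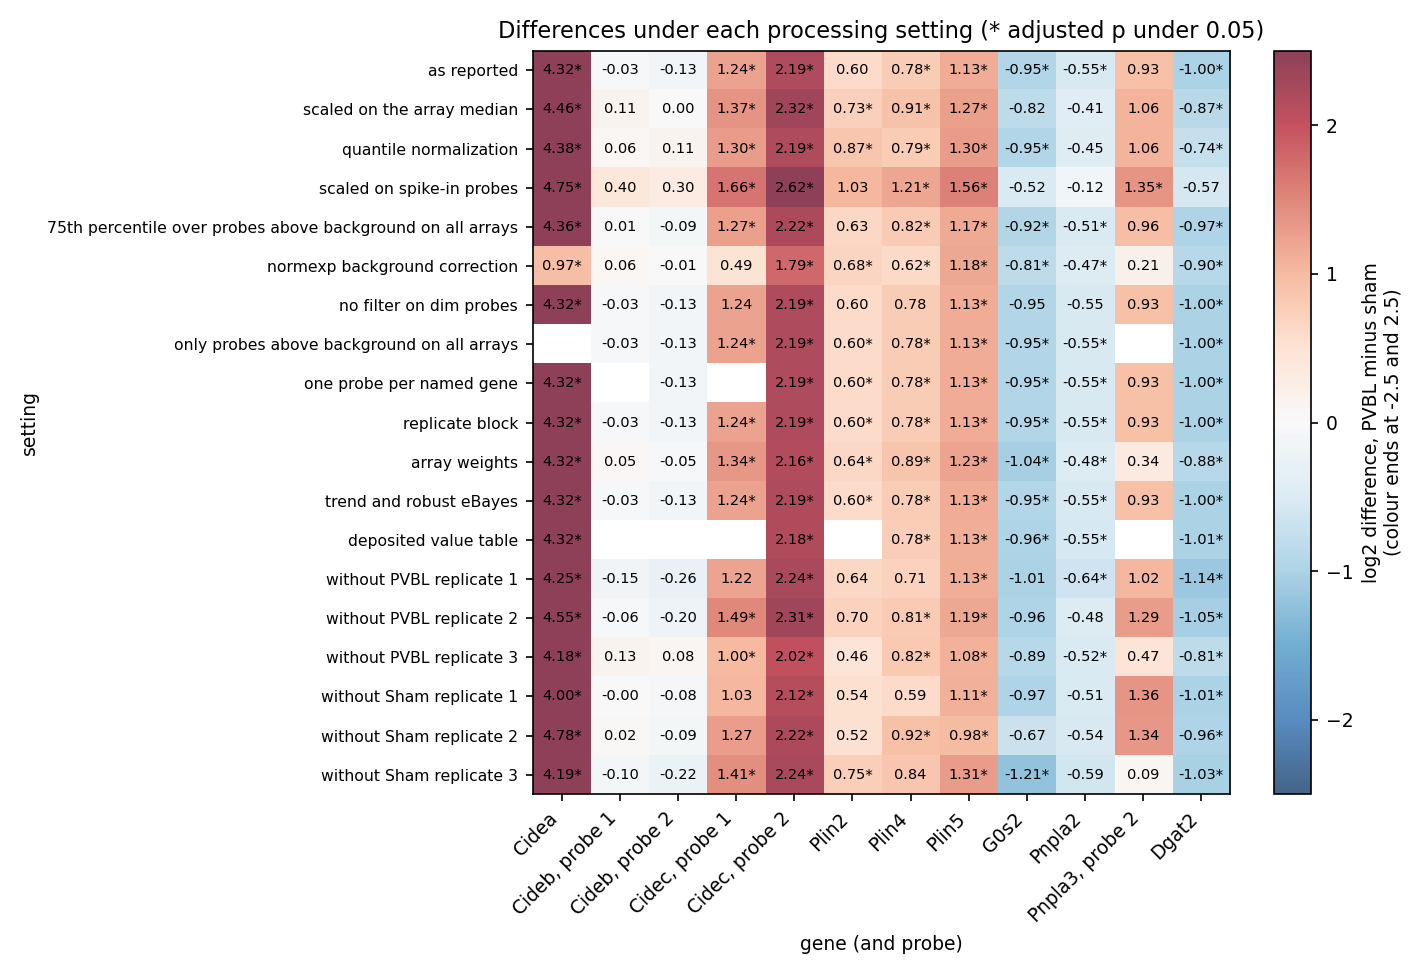
Log2 difference between PVBL and sham for the 12 tested probes (across) under the reported setting and 18 alternatives (down), with an asterisk where the adjusted p was under 0.05; blank cells are probes that a setting did not test, and the colour ends at 2.5 in either direction. The brighter Cidec probe and Plin5 were called wherever they were tested, as was Cidea, which passed the filter only through PVBL. The falls of G0s2, Pnpla2 and Dgat2 carry no asterisk with spike-in scaling.

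The other genes of fat storage were taken from 8 lists, in which each gene stands by its brightest tested probe. Of the 110 genes in these lists 3 were not tested. Of the rest, 13 (12.1%) were called higher, 28 (26.2%) lower and 66 neither, with a median log2 difference of -0.23. Over all 13586 named genes tested, 14.4% were higher, 16.8% lower and 31.2% either, with a median of -0.10. Their split was 16 higher and 18 lower with median scaling, 15 and 20 with quantile scaling and 14 and 1 with spike-in scaling, and 3 and 11 with no filter on dim probes. With 1 array left out, the counts of higher genes were 8, 6, 6 and 7 without PVBL 1, sham 1, sham 2 and sham 3, and those of lower genes 13, 16 and 17 without sham 1, sham 2 and sham 3. None of the list genes named below as lower was called with spike-in scaling. The settings named below for a lost call are examples, and some genes lost it in other settings too.

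Of 10 tested genes for other droplet proteins 2 rose and 3 fell. Hsd17b13, a droplet enzyme of hepatocytes, was 2.32-fold higher (1.22 ± 0.14) and kept its call in every setting run, its second probe giving 0.51. Hilpda, a small droplet protein that inhibits Pnpla2 and is induced by low oxygen and by fatty acids, was 1.86-fold higher (adjusted p = 0.0174), and its call was lost without sham 1 (0.80) or sham 3 (0.92). Fitm1, of droplet budding from the endoplasmic reticulum, fell by 1.29 ± 0.35, a call lost without PVBL 1 (-1.38) or any sham array (-1.40 to -1.14). Fitm1 was called in 8 of 11 other settings that kept all arrays. Mettl7b, a droplet-bound methyltransferase, fell by 0.46. Its call was lost whichever array was left out (adjusted p from 0.0531 to 0.147), and with median (-0.33) and quantile scaling (-0.31). Plin1, the perilipin of fat cells, and Cav1 were too dim to be tested.

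Of 14 tested genes of triglyceride and sterol ester synthesis, 12 did not pass. Of the acyltransferases of the first step, Gpat3 was 1.87-fold higher (0.90 ± 0.26) and Gpat4 1.62-fold lower (-0.70 ± 0.20). The call of Gpat3 was lost without PVBL 2 (0.95), PVBL 3 (0.70), sham 2 (0.74) or sham 3 (0.85), and that of Gpat4 without any array but sham 2 (-0.80 to -0.53), and with median scaling (-0.57). Gpat3 was called in 8 and Gpat4 in 7 of 11 other settings that kept all arrays.

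Of 16 genes for other lipases and their partners 3 rose and 5 fell. Lpl, lipoprotein lipase, which is low in adult hepatocytes, was 2.77-fold higher (1.47 ± 0.24, adjusted p = 0.00556), and its second probe gave 1.51. Ces1f, a liver carboxylesterase, was 2.72-fold lower (-1.44 ± 0.16), and Ces1g of the same gene cluster 1.84-fold higher (0.88 ± 0.14). Genes of that cluster are related in sequence, and how well the probes tell them apart was not checked. Lipe, hormone-sensitive lipase, was 1.88-fold lower (-0.91 ± 0.17). These 4 calls were kept without any 1 array, and those of Ces1f and Lipe were lost with spike-in scaling (-1.02 and -0.49).

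Of 15 genes of fatty acid uptake, binding and activation, 3 rose and 5 fell. Acsl1, which activates long-chain fatty acids, was 2.64-fold lower (-1.40 ± 0.22) and the fatty acid transporter Slc27a2 2.57-fold lower (-1.36 ± 0.18). The lipoprotein receptor Vldlr fell by 1.48 ± 0.32, a call lost without sham 1 (-1.30) or sham 2 (-1.31), while its other probe was not tested. Fabp4, a fatty acid binding protein of fat cells, macrophages and endothelium, was 2.16-fold higher (1.11 ± 0.22, adjusted p = 0.0122). The scavenger receptor Cd36, named after its value was seen, was higher (0.59 ± 0.18, adjusted p = 0.0466). Among the fits that left out an array, the call of Cd36 was kept only without PVBL 2 (0.44 to 0.74 over the 6 fits). Cd36 was called in 6 of 11 other settings that kept all arrays. Quantile (0.59) and spike-in scaling (1.02) were among those that lost the call.

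Of 9 genes of triglyceride secretion 1 rose and 2 fell. Apoa4, an apolipoprotein known to follow liver fat, was 2.65-fold higher (1.40 ± 0.40), and without PVBL 1 or any sham array it was not called (1.26 to 1.53, adjusted p from 0.0647 to 0.112), nor with quantile scaling (1.51). Apoc3, which slows the clearance of triglyceride, fell by 0.53. Its call was lost with median (-0.40) and quantile scaling (-0.07) and, of the fits that left out an array, kept only without PVBL 2 (-0.63 to -0.44 over the 6). Sar1b, of transport out of the endoplasmic reticulum, fell by 0.46 and was called in no fit that left out an array (adjusted p from 0.0512 to 0.104), nor with median or quantile scaling (-0.33 each).

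Of 14 lipid regulators 6 fell and 0 rose by limma's adjusted p, and 0 were higher at an unadjusted p under 0.05. With median, quantile or spike-in scaling, with normexp and without sham 3, 1 was higher at an unadjusted p. Srebf1, the gene for the sterol regulatory factor that turns on fat synthesis, was 2.43-fold lower (-1.28 ± 0.21), Cebpa 2.04-fold lower (-1.03 ± 0.19), Insig1 1.84-fold lower (-0.88 ± 0.17) and Mlxipl, the carbohydrate response factor ChREBP, 1.76-fold lower (-0.82 ± 0.12). All 4 calls were kept without any 1 array and lost with spike-in scaling, where the differences were -0.86, -0.60, -0.45 and -0.39. Ppara had 3 probes, all called lower, of which the brightest stands for the gene, and the others gave -0.98 ± 0.19 (adjusted p = 0.0104) and -0.74 ± 0.18 (adjusted p = 0.0233). The PPAR genes, named after their values were seen, stood at -0.75 ± 0.23 for Ppara (adjusted p = 0.0485) and -0.23 ± 0.15 for Pparg (adjusted p = 0.279). Ppara was called in 5 of 11 other settings that kept all arrays. Median and quantile scaling (-0.62 and -0.61) were among those that lost the call. Of the fits that left out an array, only that without PVBL 1 kept it (-0.99 to -0.56 over the 6).

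Of 11 genes of fatty acid synthesis 1 rose and 2 fell, and 8 did not pass. Acacb, the mitochondrial acetyl-CoA carboxylase, was lower (-1.32 ± 0.32), a call lost without PVBL 1, PVBL 2, sham 1 or sham 2 (-1.24, -1.36, -1.26 and -1.01). Thrsp, which follows fat synthesis, fell by 1.16 ± 0.37 at an adjusted p that rounds to 0.05. Its call was lost with median (-1.03) and quantile scaling (-0.97) and, of the fits that left out an array, kept only without sham 3 (-1.45 to -0.73 over the 6). The desaturase Fads2 was 1.65-fold higher (0.72 ± 0.16), a call lost without PVBL 1 (0.61), sham 1 (0.66) or sham 3 (0.69).

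Of 19 genes of fatty acid oxidation and ketogenesis 2 rose, 4 fell and 13 did not pass. Pdk4, a kinase that spares glucose when fat is burnt, was 3.63-fold higher (1.86 ± 0.43), a call lost without sham 1 (1.72) or sham 2 (1.87). Acot1, a thioesterase with near-identical neighbours, was 1.70-fold higher (0.77 ± 0.24) and called only without PVBL 3 among the fits that left out an array, from 0.57 to 0.92 over the 6.

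**Figure D4:**
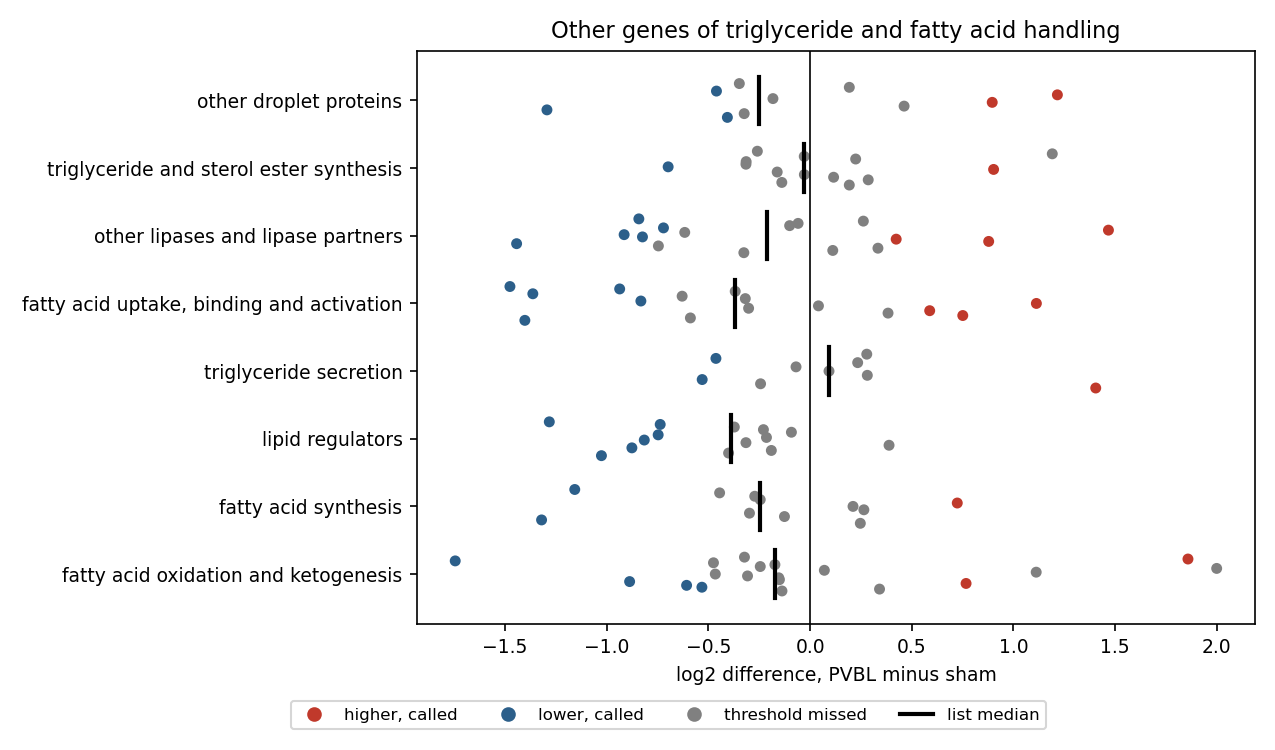
Log2 difference between PVBL and sham for the tested genes of 8 lists of fat handling (the 10 genes this text is about are left out), with red and blue for genes called higher and lower, grey for the others and a black bar at each list's median. Lipid regulators (median -0.39) show no called gene to the right of 0, and Pdk4 (1.86) is the called point farthest to the right.

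Markers of other cells were set beside these values. In bulk tissue, fewer cells of a type and less RNA per cell cannot be told apart. Of 8 adipocyte markers Adipoq, Retn, Plin1 and Ucp1 did not reach well above background anywhere. Among the other 4, Fabp4 was higher, and Cfd (-2.80 ± 0.42), Adrb3 (-0.80 ± 0.22) and Lep were lower. Lep was above background on no PVBL array and at least 1.33-fold lower. The call of Lep was kept only without PVBL 2 (-1.40) and that of Adrb3 only without sham 2 (-1.04) when 1 array was left out (-1.29 to -0.76 and -0.87 to -0.67 in the other fits). The list's summed log2 level was 3.40 to 3.90 in PVBL and 2.75 to 3.30 in sham. Fabp4 alone stood at 3.25 to 3.81 in PVBL and 2.20 to 2.86 in sham, and so set most of this sum. The median log2 difference of the 4 tested markers was -0.96. In the other lists too, the sum is set mainly by the brightest probes. Fabp4 is also in the list of uptake and binding genes. Of 4 tested biliary markers 3 were higher (summed log2 level 2.78 to 4.41 against 0.88 to 2.05). Of 7 stellate cell markers, which mark the vitamin A storing cells with droplets of their own, 2 were higher and 2 lower (6.63 to 7.10 against 5.74 to 6.18). Of 8 hepatocyte markers 1 was lower (12.1 to 12.6 against 12.8 to 13.0), and of 6 endothelial markers 1 was lower (5.58 to 6.16 against 6.77 to 6.85). Of 6 macrophage markers 1 was higher (6.15 to 7.44 against 6.54 to 6.76) and of 6 lymphocyte markers 1 was lower (5.31 to 6.23 against 6.01 to 6.40). The part of these cells in the results was not tested.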

How the data were processed

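Liver RNA from 3 PVBL and 3 sham samples was labelled with Cy3 and read on single-colour arrays. Per the file headers, the deposited intensity values come from Feature Extraction 10.7.3.1, Agilent's scanner software, already corrected for background (the submitters' processing notes name version 9.1). The authors' deposited value table holds log2 values of 7850 probes. They matched log2 intensities set to each array's 75th percentile and then centred by probe (r of at least 0.9997 per array), so direction is settled and level is lost. Its column medians were -0.18, -0.15 and -0.22 for PVBL and 0.17, 0.15 and 0.18 for sham. For 100% of its probes the groups did not overlap, so it holds probes picked for their difference, among them 7 of the 13 described here, and it served only as an alternative.

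Here, 3671 control spots and spots flagged as outliers (115 to 201 per array) were left out, and spots of a probe were averaged. Differences were tested with limma 3.58.1 in R 4.3.3 (lmFit, eBayes, two-sided, Benjamini-Hochberg over all probes tested), after a check of the procedure on data with known answers. SE is limma's moderated error, and SD is over the 3 arrays of a group. Probes were named through RefSeq transcripts (26413 of 55681 probes, GRCm38.p6). The arrays use another build, so no gene coordinates are given beyond RefSeq's promoters. Named are up to 4 called genes per list, by size of change (where a list has none, its 2 brightest), the called adipocyte markers, Alb and Hnf4a. The 10 genes and the lists were chosen with earlier results of these data known. Scaling, background correction, filter, model and each array were varied in turn. The groups share replicate numbers, but the numbers were not treated as pairs. Some genes that the naming rule selects are not reported here.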

Additional observations from a re-analysis of the deposited data

How the results depend on the processing

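The brighter Cidec probe and that of Plin5 kept their direction and their call in every setting that tested them. The probe of Cidea did so too, but it passed the filter only through PVBL, where it is high. It was not tested in the setting that kept only probes above background on all arrays. The count called higher was 3 with no filter on dim probes, against 5, and 3 to 5 with 1 array left out. The count called lower was 1 with median scaling, 0 with spike-in scaling and 1 with no filter, against 3, and 1 to 2 with 1 array left out. With spike-in scaling limma gave 0 falls at an unadjusted p under 0.05 too, where it gave 3 with the reported scaling. The SE of every tested member probe was then 0.40. With the reported scaling it was 0.14 for Pnpla2, 0.19 for Dgat2 and 0.26 for G0s2. With spike-in scaling the 3 falls were smaller and their shared error larger than with the reported scaling. The part of each in the lost calls was not tested. Cideb turned sign without a call: its probe A_55_P2008056 gave 0.11 with median scaling, 0.0639 with quantile scaling, 0.40 with spike-in scaling, 0.0069 with the percentile over probes above background on all arrays, 0.0612 with normexp, 0.0529 with array weights, 0.13 without PVBL 3 and 0.02 without sham 2 (-0.15 to 0.13 with 1 array left out), and its other probe 0.0044, 0.11 and 0.30 with the first 3 of these and 0.0847 without PVBL 3 (-0.26 to 0.0847). Alb gave 0.08 and 0.14, and Hnf4a 0.0747 and 0.26, with quantile and spike-in scaling, and Pparg 0.20 with the latter. Of the tested list genes, 3 were called higher and 11 lower with no filter, 18 lower with median scaling and 1 lower with spike-in scaling, and 6 to 10 were higher and 13 to 19 lower with 1 array left out. Over all probes, 3142 were higher and 5374 lower. These became 1676 and 1945 with no filter, 2053 and 2422 with 1 probe per named gene (fewer tests), and 3289 and 462 lower with median and spike-in scaling. With 1 array left out they were 1961 to 3306 and 2197 to 5196.

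With the replicate block 6 of the 12 probes were called higher and 3 lower, Plin2 among the former (adjusted p = 0.0298), and 9 and 22 of the list genes. The numbers were not taken as pairs: deviations of same-numbered arrays correlated at 0.20, -0.04 and 0.23, and not every array correlated best with its own number. Naming probes by a gene name column was not run, since these scanner files hold none, and normexp used the median spot signal. Calls in the deposited table were largely fixed by how its probes were picked. Dim probes limit what can be said of Pnpla3 and of Cidea in sham liver.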
